A study of Mus musculus with 8 samples.

Results

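The genes described here mark the blood vessels of the brain: 36 genes of endothelial cells, which line the vessels, and of mural cells, the pericytes and smooth muscle cells wrapped around them. They were taken by gene symbol from a list that was chosen with earlier results of these data known. Of the 36 genes, 35 had a probe set that the platform annotation gives to that gene alone, out of 18193 genes in all. Ly6c1, a surface protein of brain endothelium, has its only probe set in common with Ly6c2 and therefore has no value here. The list was shown in 3 parts: 11 barrier genes (3 of cell junctions and 8 transporters), 19 other endothelial genes (18 with a value) and 6 mural genes.

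The 2 groups were 4 R6/2 mice, numbered 64, 65, 70 and 78, and 4 wild-type mice, numbered 42, 48, 54 and 63. R6/2 mice express the first exon of human huntingtin with a long CAG repeat from a transgene driven by the human promoter, and are used as a model of Huntington's disease. Vascular and neuronal cells alike carry that transgene, which is active in many tissues and represents a fragment of huntingtin and not the whole gene. All animals were females aged 85 days (12 weeks), with C57Bl/6 / CBA given as the strain, and the striatum of each was run on 1 Affymetrix array. The design text counts 5 wild-type mice, and 1 of them was not analysed here. Each mouse has a number of its own, and the tests rest on the spread between mice, whose number limits the precision.

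Brain endothelial cells are joined by tight junctions and carry few pores, so nutrients, drugs and waste cross the blood-brain barrier mainly through transporters in the cell membrane. Vascular endothelial growth factor acts on these cells through the receptors Kdr and Flt1, angiopoietins act through Tek, and Wnt ligands from neural cells keep the barrier programme on. Pericytes are held to the vessel wall by platelet-derived growth factor signalling through Pdgfrb.

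Lower expression in R6/2 striatum was found for 6 of the 35 measured vascular genes: the junction protein gene Cldn5, the transporter genes Slco1a4 and Abcb1a, and the receptor genes Flt1, Kdr and Eng. The transporter gene Abcg2 was higher. The other 28 genes did not pass the test, among them all 6 mural genes. The differences ranged between -0.84 and 0.55 on the log2 scale, R6/2 minus wild-type, with a median of -0.13, against a median of -0.0034 over all genes. Each gene was tested with limma across all genes and called at a Benjamini-Hochberg adjusted p under 0.05.

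The share of vascular genes called lower was 17.1%, against 6.19% of all genes, and the share called higher was 2.86%, against 9.09%. Because earlier results of these data were known when the list was chosen, these shares describe the list and do not test it. Among the 26 vascular genes whose probe set was brighter than the median probe set, 6 were lower (23.1%) and 1 was higher (3.85%). Over all genes as bright, 8.80% were lower and 13.9% were higher. None of the 9 dimmer vascular genes was called, and their median difference was -0.077. Counting genes whether called or not, 28 of 35 (80.0%) had the lower mean in R6/2 mice, against 50.7% of all genes. The 4 R6/2 values lay apart from the 4 wild-type values in 8 genes (22.9%), close to the 19.4% of all genes: Cldn5, Abcb1a, Abcg2, Mfsd2a, Esam, Flt1, Kdr and Eng.

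In bulk tissue, fewer cells of a type and less RNA per cell cannot be told apart, so each value is a level in the dissected striatum.

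**Figure D1:**
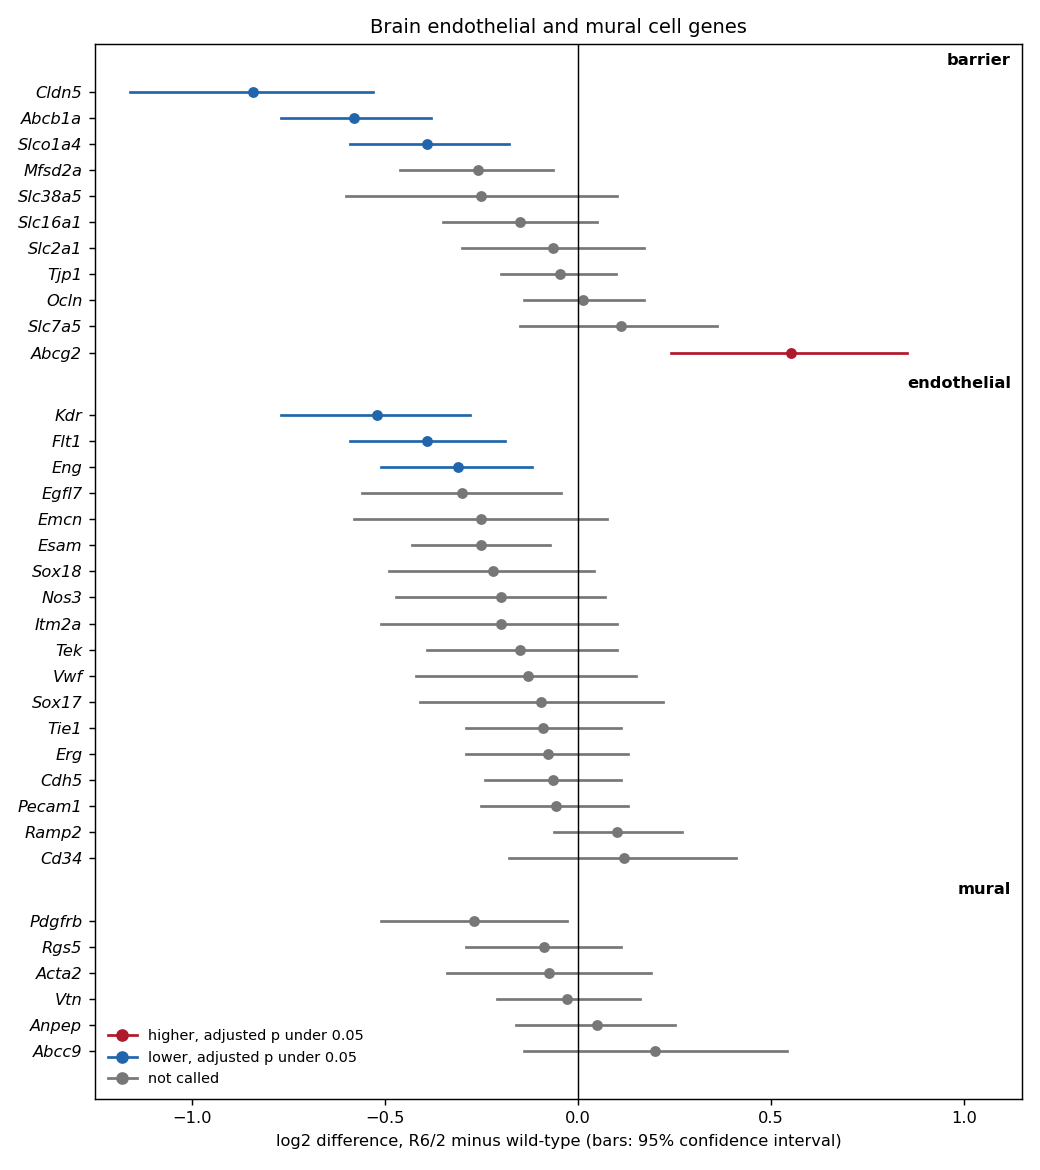
Log2 difference, R6/2 minus wild-type, of the 35 measured vascular genes, grouped into barrier, endothelial and mural genes. Points are differences and bars are 95% confidence intervals from limma (4 mice per group); blue points are the 6 lower genes, the red point is Abcg2, and the grey points did not pass the test.

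The calls of Cldn5, Abcb1a, Flt1 and Kdr held when any 1 of the 8 mice was left out, so the sequences in front of these 4 genes are shown. Each runs over the 250 bases before the RefSeq transcription start (build GRCm38.p6), 5′ to 3′ on the strand of the gene. Capitals mark the letters of 3 short motifs on either strand: NGGAAG, the core read by ETS factors such as Erg; then TCAAAG, read by the TCF/LEF factors of the Wnt pathway; then AACAAT, read by SOX factors.
Cldn5: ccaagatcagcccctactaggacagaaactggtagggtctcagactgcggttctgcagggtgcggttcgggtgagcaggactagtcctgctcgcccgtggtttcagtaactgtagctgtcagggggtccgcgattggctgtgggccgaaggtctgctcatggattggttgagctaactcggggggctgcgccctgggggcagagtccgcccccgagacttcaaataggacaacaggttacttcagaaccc
Abcb1a: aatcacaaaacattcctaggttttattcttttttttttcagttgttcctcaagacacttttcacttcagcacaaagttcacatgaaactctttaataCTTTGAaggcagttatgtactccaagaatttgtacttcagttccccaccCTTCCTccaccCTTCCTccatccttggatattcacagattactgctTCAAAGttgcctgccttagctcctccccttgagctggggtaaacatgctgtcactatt
Flt1: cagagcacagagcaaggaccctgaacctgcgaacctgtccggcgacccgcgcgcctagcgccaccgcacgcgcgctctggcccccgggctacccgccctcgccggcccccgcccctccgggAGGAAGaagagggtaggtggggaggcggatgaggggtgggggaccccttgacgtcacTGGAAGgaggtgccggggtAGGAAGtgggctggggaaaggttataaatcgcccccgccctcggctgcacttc
Kdr: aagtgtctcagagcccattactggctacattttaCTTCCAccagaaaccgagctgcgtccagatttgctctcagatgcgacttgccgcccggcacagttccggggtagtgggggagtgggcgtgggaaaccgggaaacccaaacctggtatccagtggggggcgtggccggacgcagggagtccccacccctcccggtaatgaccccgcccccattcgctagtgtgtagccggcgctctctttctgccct
These windows lie at chr16:18776597-18776846 on the plus strand for Cldn5, chr5:8566841-8567090 on the plus strand for Abcb1a, chr5:147726012-147726261 on the minus strand for Flt1 and chr5:75978456-75978705 on the minus strand for Kdr.

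The 4 windows had little in common. Flt1 held 3 ETS matches, with first bases 129, 72 and 53 bases before the start, within a window of 70.4% G and C. Kdr held 1 ETS match, at 216 bases, and 61.6% G and C. Abcb1a held 2 ETS matches, at 104 and 93 bases, and 2 TCF/LEF matches, at 153 and 58 bases, in a window of 40.4% G and C. Cldn5 held none of the 3 motifs, in a window of 59.6% G and C. The motifs do not overlap one another in these windows.

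Windows were found for 26 of the 36 genes, 34 windows in all because some genes have more than 1 start. ETS letters stood in 67.6% of them, against 63.9% of the 32851 windows of all genes. TCF/LEF letters stood in 11.8%, against 13.8%, and SOX letters in 11.8%, against 9.42%. The shares of the vascular genes were thus near those of all genes. A match is a run of letters and not a binding site.

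Among the junction genes, Cldn5 differed most of all 35 vascular genes. It encodes claudin-5, the main claudin of the tight junctions of brain endothelium. Cldn5 had log2 values of 7.50, 7.45, 7.63 and 7.95 in R6/2 mice, against 8.77, 8.56, 8.43 and 8.15 in wild-type mice. Every R6/2 value lay below every wild-type value, with R6/2 mouse 78 and wild-type mouse 63 nearest to each other. Cldn5 was 1.79-fold lower in R6/2 mice (log2 difference -0.84 ± 0.14 SE, limma adjusted p = 0.00374).

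The other junction genes were not called. Ocln encodes occludin, a membrane protein of the same junctions, and its values lay between 4.82 and 4.88 in R6/2 mice and between 4.75 and 4.93 in wild-type mice. Its difference was 0.013 (95% confidence interval -0.14 to 0.17). Tjp1 encodes the scaffold protein ZO-1, which many cell types besides endothelium make. Tjp1 differed by -0.048 (-0.20 to 0.099). Ocln was measured by a dim probe set, and its other one differed by -0.21 without a call.

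**Figure D2:**
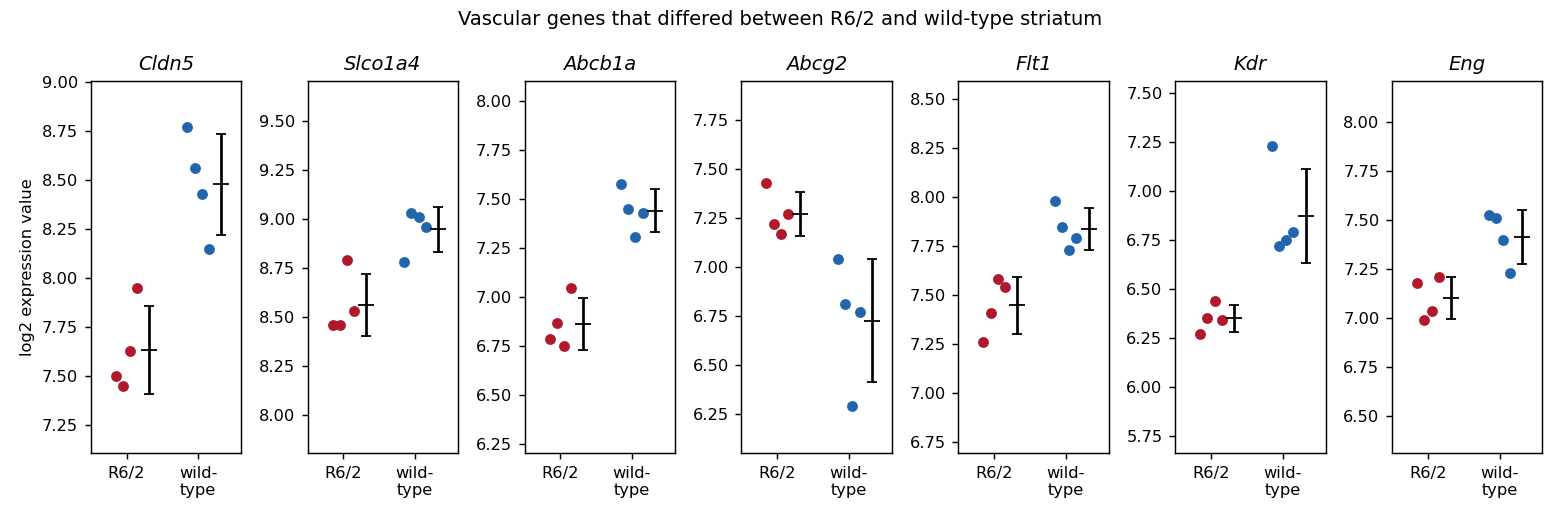
Log2 expression value (vertical axis) of the 7 vascular genes that passed the test, in the 4 R6/2 mice (left) and 4 wild-type mice (right) of every panel. Points are mice, and the black marks beside them are group means with bars of the standard deviation. Groups do not overlap except in Slco1a4.

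Of the 8 transporter genes, 2 were lower (25%) and 1 was higher (12.5%), against 6.19% and 9.09% of all genes. So few genes cannot be set against these shares. The 3 called genes code for transporters of drugs and organic anions. Abcb1a encodes P-glycoprotein, which pumps many drugs back into the blood. Abcb1a had values of 6.79, 6.87, 6.75 and 7.05 in R6/2 mice, against 7.58, 7.45, 7.31 and 7.43 in wild-type mice. The groups were well apart, and R6/2 mouse 78 was again the highest of its group. Abcb1a was 1.49-fold lower (log2 difference -0.58 ± 0.089 SE, limma adjusted p = 0.0024). Its other probe set, a dimmer one, differed by -0.19 and was not called (adjusted p = 0.218 over all probe sets).

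Slco1a4 encodes an organic anion transporter that is also present in other tissues. Slco1a4 had values of 8.46, 8.46, 8.79 and 8.53 in R6/2 mice, against 8.78, 9.03, 9.01 and 8.96 in wild-type mice. R6/2 mouse 70 and wild-type mouse 42 were level, while the other 3 R6/2 mice lay below all wild-type mice. Slco1a4 was 1.31-fold lower (-0.39 ± 0.095 SE, limma adjusted p = 0.0216). The call was lost without R6/2 mouse 64, 65 or 78 or wild-type mouse 48 or 54, with adjusted p up to 0.0662.

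Abcg2 encodes breast cancer resistance protein, a drug pump that works beside P-glycoprotein on the blood side of the endothelium. Abcg2 had values of 7.43, 7.22, 7.17 and 7.27 in R6/2 mice, against 7.04, 6.81, 6.29 and 6.77 in wild-type mice. The groups did not overlap, and the wild-type mice were more scattered (SD 0.32) than the R6/2 mice (SD 0.11). Abcg2 was 1.46-fold higher (0.55 ± 0.14 SE, limma adjusted p = 0.0259), the only vascular gene called in that direction. Without any 1 of the 4 R6/2 mice, or without wild-type mouse 48, the call was lost, with adjusted p up to 0.0716.

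The 5 nutrient transporters and lipid carriers were not called. Slc2a1 encodes the glucose transporter GLUT1 and differed by -0.066 (95% confidence interval -0.30 to 0.17). Slc16a1, for the lactate and ketone body carrier MCT1, differed by -0.15 (-0.35 to 0.05). Slc7a5, for the large neutral amino acid carrier LAT1, differed by 0.11 (-0.15 to 0.36), and Slc38a5, a glutamine carrier gene, by -0.25 (-0.60 to 0.10). Each of these groups overlapped.

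Mfsd2a encodes the carrier that brings lysophospholipids with omega-3 fatty acids into the brain. Mfsd2a had values of 7.05, 6.70, 7.02 and 7.0 in R6/2 mice, against 7.26, 7.22, 7.12 and 7.22 in wild-type mice. The groups were apart, but by a small step next to their spread, with R6/2 mouse 65 far below its group. The difference was -0.26 ± 0.089 SE and did not pass the test (limma adjusted p = 0.0747). With quantile normalization Mfsd2a was called lower.

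Growth factor receptors and coreceptors held 3 lower genes among 6, too few genes to set against the 6.19% of all genes. Kdr encodes VEGF receptor 2, the main signalling receptor for vascular endothelial growth factor. Kdr had values of 6.27, 6.35, 6.44 and 6.34 in R6/2 mice, against 7.23, 6.72, 6.75 and 6.79 in wild-type mice. All R6/2 mice lay below all wild-type mice, and wild-type mouse 42 stood far above the other 3 of its group. Kdr was 1.44-fold lower (-0.52 ± 0.11 SE, limma adjusted p = 0.0118), and without wild-type mouse 42 or any other mouse the adjusted p was at most 0.0355.

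Flt1 encodes VEGF receptor 1, which binds the ligand tightly and signals little. Flt1 had values of 7.26, 7.41, 7.58 and 7.54 in R6/2 mice, against 7.98, 7.85, 7.73 and 7.79 in wild-type mice. The groups did not overlap, and the gap between R6/2 mouse 70 and wild-type mouse 54 was narrow. Flt1 was 1.31-fold lower (-0.39 ± 0.09 SE, limma adjusted p = 0.0165), with adjusted p up to 0.0475 when 1 mouse was left out. Its other 3 probe sets differed by -0.47, -0.46 and -0.39, of which the first was called (adjusted p = 0.0479 over all probe sets).

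Eng encodes endoglin, a coreceptor for transforming growth factor beta and BMP9 on endothelial cells. Eng had values of 7.18, 6.99, 7.04 and 7.21 in R6/2 mice, against 7.53, 7.51, 7.40 and 7.23 in wild-type mice. R6/2 mouse 78 and wild-type mouse 63 all but met. Eng was 1.24-fold lower (-0.31 ± 0.089 SE, limma adjusted p = 0.0377). The call was lost without R6/2 mouse 64, 65 or 70 or wild-type mouse 42, 48 or 54, with adjusted p up to 0.104.

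The remaining receptor genes were not called. Tek and Tie1 encode the angiopoietin receptor Tie2 and its partner, and they differed by -0.15 (95% confidence interval -0.39 to 0.10) and -0.092 (-0.29 to 0.11). Ramp2 encodes the coreceptor that turns the Calcrl receptor towards adrenomedullin. Ramp2 differed by 0.10 (-0.061 to 0.27). Groups overlapped in all of them.

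Of the 9 measured surface and secreted genes of endothelium, none was called. In R6/2 mice 8 of them (88.9%) had the lower mean, against 50.7% of all genes. Esam encodes an adhesion molecule of endothelial junctions, and came nearest to a call. Esam had values of 6.66, 6.52, 6.64 and 6.75 in R6/2 mice, against 6.84, 6.86, 7.05 and 6.82 in wild-type mice. The groups did not overlap. The difference was -0.25 ± 0.081 SE (limma adjusted p = 0.061), and Esam was called lower with quantile normalization, without the dimmest 40% of genes and with array weights. Esam has a single probe set, and its adjusted p also passed, at an unaltered difference, when the probe sets of other genes were averaged.

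Egfl7 is a matrix protein gene of endothelial cells. Egfl7 had values of 6.37, 6.23, 6.49 and 6.83 in R6/2 mice, against 6.83, 6.69, 6.85 and 6.77 in wild-type mice. R6/2 mouse 78 lay among the wild-type mice, and the other 3 R6/2 mice below them. The difference was -0.30 ± 0.12 SE (limma adjusted p = 0.109), and without R6/2 mouse 78 the adjusted p was 0.0187. The second of its 4 probe sets differed by -0.41 ± 0.088 SE and was called lower (adjusted p = 0.0167 over all probe sets), while the third and the fourth were not called at -0.20 and -0.087. The mean of its probe sets was called lower (-0.25, adjusted p = 0.0278).

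The other surface genes overlapped between the groups. Pecam1 and Cdh5, for the adhesion proteins CD31 and VE-cadherin that define endothelium, differed by -0.058 (95% confidence interval -0.25 to 0.13) and -0.064 (-0.24 to 0.11). Both probe sets were dim, with means between 4.27 and 4.51 in either group, and whether this made their differences smaller was not tested. Emcn, for the sialomucin endomucin of veins and capillaries, differed by -0.25 (-0.58 to 0.074). Itm2a, a membrane protein gene enriched in brain endothelium, differed by -0.20 (-0.51 to 0.10), and Nos3, for endothelial nitric oxide synthase, by -0.20 (-0.47 to 0.071). Vwf, for the clotting protein von Willebrand factor, differed by -0.13 (-0.42 to 0.15). Without wild-type mouse 54 it was called lower, at an adjusted p of 0.0497. Cd34, a sialomucin gene of endothelial and blood stem cells, differed by 0.12 (-0.18 to 0.41).

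Transcription factors that set endothelial identity were not called. Sox17 and Sox18, of the SoxF group that acts in artery and vessel formation, differed by -0.097 (95% confidence interval -0.41 to 0.22) and -0.22 (-0.49 to 0.041). Erg, an ETS factor that maintains endothelial genes, differed by -0.077 (-0.29 to 0.13). For these 3 genes wild-type mouse 42 was the highest of all 8 mice.

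**Figure D3:**
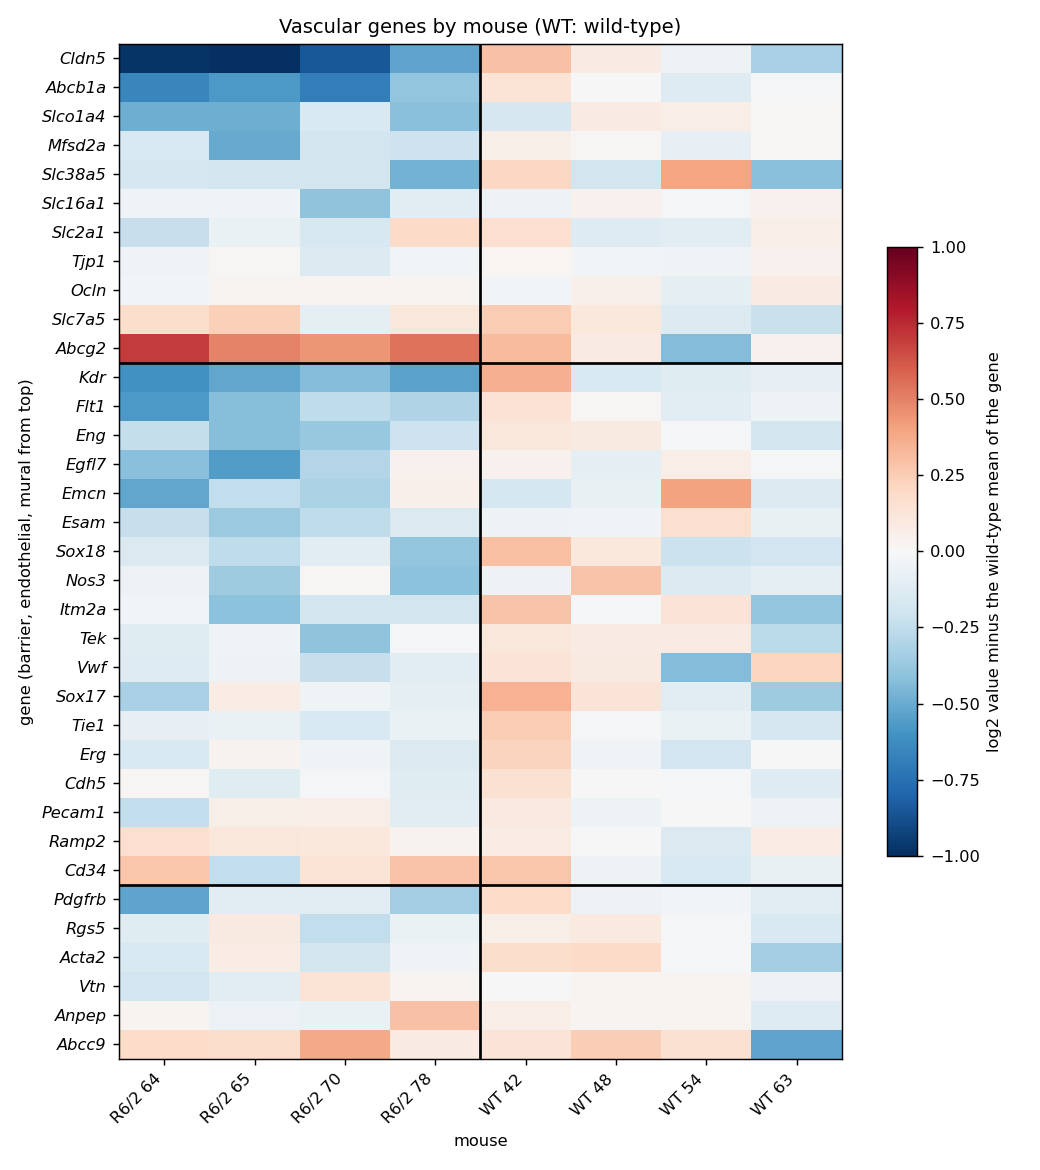
Log2 value minus the wild-type mean (colour) of the 35 measured vascular genes (rows: barrier, endothelial, mural) in the 4 R6/2 mice (left) and the 4 wild-type mice (right). Below the wild-type mean lay 24 to 28 genes per R6/2 mouse, against 6 in wild-type mouse 42 and 25 in wild-type mouse 63.

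Mural genes gave no call, and their intervals were wide next to their differences. Pdgfrb, the receptor gene that defines pericytes, moved furthest. Pdgfrb had values of 6.84, 7.26, 7.25 and 7.02 in R6/2 mice, against 7.55, 7.31, 7.34 and 7.26 in wild-type mice. R6/2 mouse 65 and wild-type mouse 63 were level, and the other R6/2 mice lay below all wild-type mice. The difference was -0.27 ± 0.11 SE (limma adjusted p = 0.124), and a second probe set differed by -0.28.

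Rgs5, a regulator of G protein signalling found in pericytes, had values of 9.88, 10.09, 9.75 and 9.93 in R6/2 mice, against 10.06, 10.10, 9.99 and 9.85 in wild-type mice. Its difference was -0.088 (95% confidence interval -0.29 to 0.11), and the groups overlapped in most of their range. Vtn, the gene of the matrix protein vitronectin, which brain pericytes make, differed by -0.029 (-0.21 to 0.16). Acta2, smooth muscle actin, differed by -0.074 (-0.34 to 0.19).

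Abcc9 encodes the SUR2 subunit of potassium channels that pericytes use. Its values were 6.31, 6.30, 6.50 and 6.21 in R6/2 mice, against 6.25, 6.37, 6.28 and 5.60 in wild-type mice. Wild-type mouse 63 alone stood low. The difference was 0.20 (-0.14 to 0.54). Anpep, for the membrane peptidase CD13 of pericytes, differed by 0.048 (-0.16 to 0.25).

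The counts of the 3 parts of the list are to be read against 6.19% lower and 9.09% higher of all genes. Barrier genes had 3 lower (27.3%) and 1 higher (9.09%, the share of all genes) of 11, with a median difference of -0.15. Endothelial genes had 3 lower (16.7%) and none higher of 18, with a median of -0.17. Mural genes had none of 6 called, too few genes to set against these shares. Their median was -0.052, which became 0.035 when all probe sets of a gene were averaged. Whether the parts differ from each other was not tested.

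Averaged over its genes, each part was set at 0 for the wild-type mean. The barrier genes stood at -0.17, -0.19, -0.22 and -0.12 in R6/2 mice, against 0.11, 0.012, -0.059 and -0.061 in wild-type mice. The endothelial genes stood at -0.19, -0.21, -0.15 and -0.14 in R6/2 mice, against 0.14, 0.013, -0.049 and -0.11 in wild-type mice. The mural genes stood at -0.13, 0.012, -0.017 and -0.0078 in R6/2 mice, against 0.10, 0.088, 0.027 and -0.22 in wild-type mice. R6/2 mice lay below wild-type mice for barrier and endothelial genes, by a narrow margin for the endothelial genes. For the 6 mural genes they lay among the wild-type mice. That overlap was not seen in the 23 other mural genes described below. Their levels lay between -0.14 and -0.045 in R6/2 mice, against -0.027 and 0.042 in wild-type mice. The levels of the other endothelial and other barrier genes were likewise below those of wild-type mice.

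Wild-type mouse 42 was the highest of its group in 20 of the 35 genes, and only 6 of its values lay below the wild-type mean, against 14, 24 and 25 in wild-type mice 48, 54 and 63. Without mouse 42 the endothelial median was -0.11 and the mural median -0.021. Without R6/2 mouse 70 the barrier median was -0.066. Without R6/2 mouse 64 the mural median was -0.012, and without wild-type mouse 63 it was -0.094.

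Several probe sets of 1 gene often disagreed. Of the 35 genes, 16 had more than 1 probe set, with 25 further ones, and 9 of these, in 7 genes, had the opposite sign to the brightest: Abcc9, Acta2, Itm2a, Ocln, Rgs5, Slc2a1 and Vtn. None of the 9 was called. Rgs5 showed the widest scatter, with 3 dimmer probe sets at 0.23 ± 0.68, 0.32 ± 0.21 and 0.12 ± 0.28 SE. Among all 60 probe sets of the vascular genes, tested over all probe sets, 7 were lower and 1 was higher. The share of all probe sets called in that fit is not given here, so these counts have no background. The 7 are not simply those of the 6 lower genes. They include a dimmer probe set of Flt1 and a dimmer one of Egfl7, while that of Eng was not called (limma adjusted p = 0.0519).

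Further vascular genes were read from lists that had likewise been made with results of these data known. Their shares are to be read against the 6.19% lower and 9.09% higher of all genes. Among 28 other endothelial genes 1 was lower and 1 was higher (3.57% each), with a median of -0.13. Klf4, a shear stress factor of endothelium, was lower (-0.36 ± 0.082 SE, limma adjusted p = 0.0163), while its second probe set differed by -0.046. Foxc1, a vascular development factor, was higher (0.39 ± 0.11 SE, limma adjusted p = 0.0367), a call that was lost without R6/2 mouse 65 or 78 or wild-type mouse 42, 54 or 63.

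Other barrier genes gave 4 lower (16.7%) and 1 higher (4.17%) of 24, with a median of -0.083. Slc40a1 encodes ferroportin, the iron exporter. Slc40a1 had values of 5.71, 5.70, 5.68 and 5.69 in R6/2 mice, against 6.54, 6.27, 6.61 and 5.98 in wild-type mice. The R6/2 mice lay together below the scattered wild-type mice (-0.66 ± 0.12 SE, limma adjusted p = 0.00658), but a second probe set differed by 0.12. Slc6a6, a taurine transporter gene, was lower (-0.49 ± 0.084 SE, limma adjusted p = 0.0038), and Jam3, a junctional adhesion molecule gene, was higher (0.40 ± 0.083 SE, limma adjusted p = 0.0109), with its dimmer probe set at -0.13. The calls of these 3 genes were lost when all probe sets of a gene were averaged.

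Among 23 other mural genes, 3 were lower (13%) and 2 higher (8.70%, close to the 9.09% of all genes), with a median of -0.11. Tagln encodes transgelin, a smooth muscle actin-binding protein. Tagln had values of 5.67, 5.31, 5.76 and 5.58 in R6/2 mice, against 6.40, 6.21, 6.34 and 5.90 in wild-type mice. The groups did not overlap (-0.64 ± 0.13 SE, limma adjusted p = 0.00837). Mcam, for the adhesion protein CD146, was lower (-0.37 ± 0.092 SE, limma adjusted p = 0.0224; lost without R6/2 mouse 64 or 70 or wild-type mouse 63). S1pr3, a sphingosine phosphate receptor gene, was higher (0.63 ± 0.14 SE, limma adjusted p = 0.0162; lost without R6/2 mouse 70 and when probe sets were averaged). Notch3, the receptor of vascular smooth muscle, differed by -0.20 (95% confidence interval -0.43 to 0.037).

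Ligands and partners of the vascular receptors gave 6 lower (14.6%) and 2 higher (4.88%) of 41, with a median of -0.078. Vegfa differed by 0.084 (95% confidence interval -0.091 to 0.26) and Vegfb by -0.23 (-0.44 to -0.0084, limma adjusted p = 0.153). Angpt1 differed by 0.10, Angpt2 by -0.071 and Pdgfb by -0.12, and none of these ligands was called. The 2 higher genes were Sema3a and Pgf. Sema3a had the larger difference (0.78 ± 0.16 SE, limma adjusted p = 0.00927), and its groups did not overlap. Pgf, another ligand gene of this list, differed less (0.33 ± 0.091 SE, limma adjusted p = 0.0337), and its groups met at 5.62. Whether these 2 calls held with a mouse left out is not reported here. Calcrl, the receptor that pairs with Ramp2, differed by 0.33 (0.045 to 0.62, adjusted p = 0.114). The 3 lower genes with the smallest adjusted p are also made by neurons or glia.

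Cxcl12, a chemokine gene of endothelium and other cells, had values of 6.85, 7.13, 7.25 and 7.39 in R6/2 mice, against 8.05, 7.89, 7.79 and 7.96 in wild-type mice. All R6/2 mice lay below all wild-type mice (-0.77 ± 0.11 SE, limma adjusted p = 0.00198), while its dimmer probe sets differed by -0.23 and -0.17. Plxnd1, a semaphorin receptor gene of endothelium and of some striatal neurons, was lower (-0.83 ± 0.12 SE, limma adjusted p = 0.00183). Jag1, a Notch ligand gene, was lower (-0.98 ± 0.16 SE, limma adjusted p = 0.00303), with its dimmer probe sets at -0.28 and -0.058, neither called. These 3 calls held when any 1 mouse was left out.

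Barrier Wnt signalling gave 4 lower (17.4%, against 6.19% of all genes) and none higher of 23, with a median of -0.088. Wnt7a, a ligand that neural cells send to endothelium, had values of 6.28, 5.79, 6.22 and 6.10 in R6/2 mice, against 7.01, 6.78, 6.93 and 6.53 in wild-type mice. The groups did not overlap (-0.72 ± 0.13 SE, limma adjusted p = 0.00508). Its 2 dimmer probe sets differed by -0.04 and 0.096. Adgra2, the endothelial coreceptor for Wnt7 ligands also called Gpr124, had values of 4.66, 4.61, 4.56 and 4.92 in R6/2 mice, against 5.32, 5.17, 5.10 and 5.22 in wild-type mice. It was lower in every R6/2 mouse (-0.51 ± 0.092 SE, limma adjusted p = 0.00515).

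Axin2, a target and inhibitor of the pathway, was lower (-0.28 ± 0.077 SE, limma adjusted p = 0.0357), a call that was lost without any 1 mouse except R6/2 mouse 78 and wild-type mouse 63. Fzd4, the endothelial receptor for norrin, differed by 0.054 (95% confidence interval -0.36 to 0.47) and turned negative without R6/2 mouse 65 or 78 or wild-type mouse 42 or 54.

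**Figure D4:**
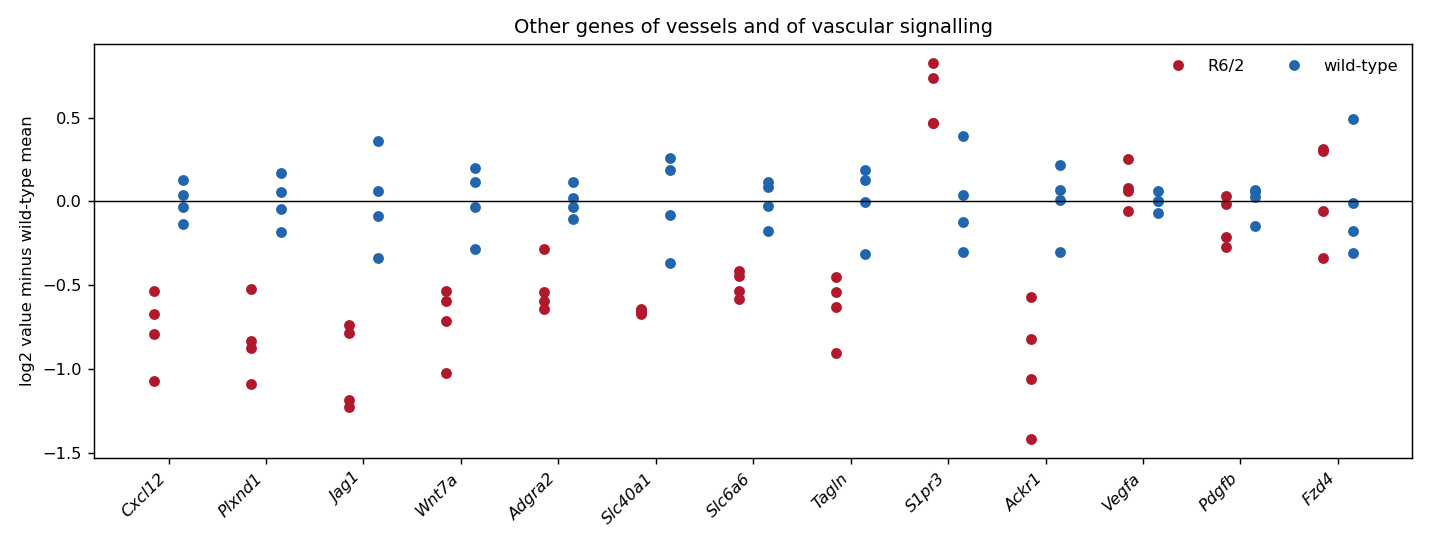
Log2 value minus the wild-type mean (vertical axis) of 13 other genes of vessels and vascular signalling; points are the 4 R6/2 mice (left of each pair) and the 4 wild-type mice (right). S1pr3 lies above and Cxcl12, Plxnd1, Jag1, Wnt7a, Adgra2, Slc40a1, Slc6a6, Tagln and Ackr1 lie below the wild-type mice, while Vegfa, Pdgfb and Fzd4 overlap.

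Genes of endothelial activation gave 1 lower and 1 higher of 15 (6.67% each, near or below the shares of all genes), with a median of -0.036. Ackr1, the chemokine-binding receptor of venules, had values of 8.59, 8.34, 8.10 and 7.74 in R6/2 mice, against 9.23, 9.17, 9.38 and 8.86 in wild-type mice. The groups did not overlap (-0.97 ± 0.17 SE, limma adjusted p = 0.00455). Nfkbia, for the inhibitor of NF-kappaB, was higher (0.44 ± 0.11 SE, limma adjusted p = 0.0206; lost without R6/2 mouse 65 or 70 or wild-type mouse 54).

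Hypoxia response genes gave 1 lower (7.14%, against 6.19% of all genes) and 2 higher (14.3%, against 9.09%) of 14, with a median of 0.024. Over brighter genes the shares were 8.80% and 13.9%. Pdk1, a mitochondrial kinase gene, was higher (0.58 ± 0.08 SE, limma adjusted p = 0.00145), as was Hif1a, for the oxygen-sensing factor (0.38 ± 0.09 SE, limma adjusted p = 0.0186; lost without R6/2 mouse 70 or wild-type mouse 48). Epas1, for the HIF2 alpha factor that endothelium expresses, was lower (-0.23 ± 0.068 SE, limma adjusted p = 0.0435), a call that was lost without any 1 of the 8 mice.

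**Figure D5:**
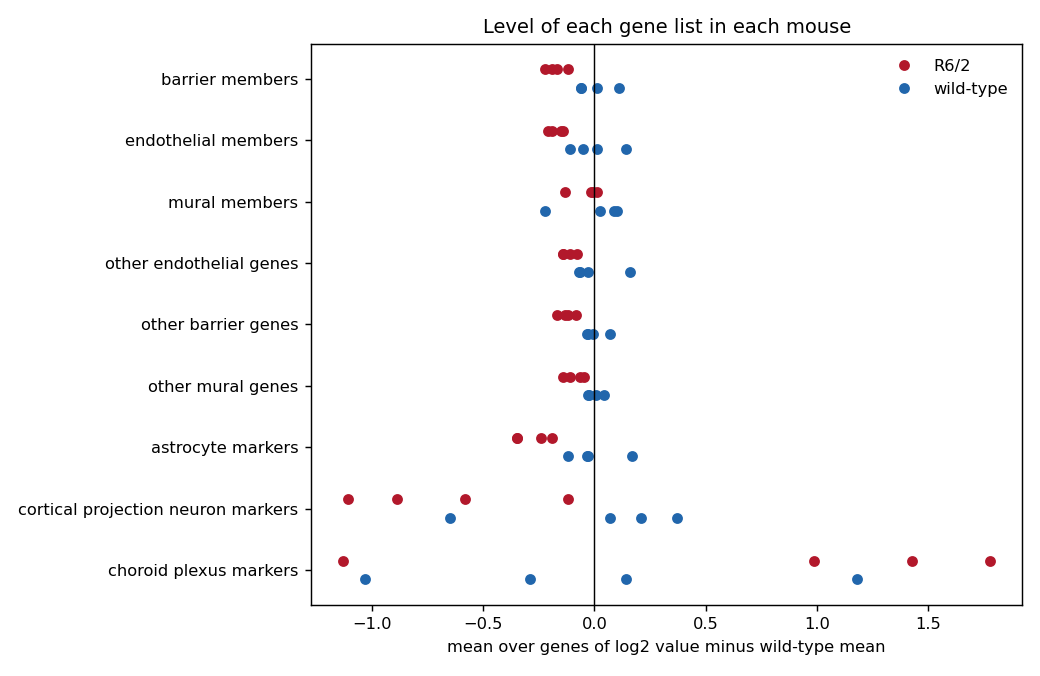
Level of each gene list in each mouse: the mean over its genes of the log2 value minus the wild-type mean (horizontal axis), with R6/2 mice drawn above wild-type mice. R6/2 mice lie between -0.21 and -0.14 for the endothelial genes and between -0.35 and -0.19 for astrocyte markers. The choroid plexus and cortical projection neuron markers spread widely in both groups, with R6/2 means of 0.77 and -0.67.

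Markers of other cells were read in the same mice. Astrocyte markers were lower in 7 of 14 (50%, against 6.19% of all genes and 8.80% of brighter genes) and higher in none. Their mean levels lay between -0.35 and -0.19 in R6/2 mice, against -0.12 and 0.17 in wild-type mice. Perivascular macrophage markers (none of 8 called), microglia markers (none of 13) and fibroblast and meningeal markers (1 lower of 13) had overlapping levels. The fibroblast share of 7.69% was near that of all genes. Of 5 red blood cell markers, 1 was lower, a list too short to set against these shares. Medium spiny neuron markers, which define the tissue, were bright in all mice, and 9 of 10 (90%) were lower in R6/2 mice. Penk, the enkephalin gene, lay between 11.15 and 11.30 in R6/2 mice and between 12.28 and 12.63 in wild-type mice. The part of these cells in the vascular results was not tested.

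Levels of cortical projection neuron markers lay between -1.11 and -0.12 in R6/2 mice, against -0.65 and 0.37 in wild-type mice, and those of choroid plexus markers between -1.13 and 1.78, against -1.03 and 1.18. Both are tissues next to the striatum. With the cortical level as a covariate, 4 vascular genes were no longer called at differences close to those without it: Slco1a4 at -0.43 (limma adjusted p = 0.0779), Flt1 at -0.38 (0.10), Kdr at -0.44 (0.112) and Eng at -0.27 (0.221). Cldn5 and Abcb1a were called, as was Abcg2, at a larger difference of 0.85. Emcn was called lower, at -0.59 (limma adjusted p = 0.0241). Of the further genes, Jam3 (0.40), Tagln (-0.57), Mcam (-0.46), Wnt7a (-0.61), Adgra2 (-0.47), Axin2 (-0.30), Nfkbia (0.41) and Epas1 (-0.25) were no longer called either. Klf4 (-0.30) and Foxc1 (0.29) were not called as well. With the choroid plexus level as a covariate, Eng (-0.26, limma adjusted p = 0.0802), Foxc1 (0.35) and Axin2 (-0.26) were not called. Both covariates were chosen after the data had been seen.

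Some calls rested on how limma was set. Without its moderation of the variances, which leaves the differences as they are, Cldn5 and Abcb1a were still called, while Flt1 (adjusted p = 0.0539), Kdr (0.0613), Slco1a4 (0.0694), Eng (0.0846) and Abcg2 (0.106) were not. Eng also lost its call when arrays were centred on their medians and when probe sets were averaged. Among the further genes, Foxc1, Slc40a1, Tagln, S1pr3, Mcam, Axin2, Nfkbia and Hif1a were not called without moderation, and Foxc1, Axin2 and Epas1 were not when probe sets were averaged. That averaging kept the calls of Abcb1a (-0.38), Klf4 (-0.20), Cxcl12 (-0.39), Jag1 (-0.44), Wnt7a (-0.22) and Hif1a (0.22) at smaller differences.

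Values of all genes ran between 2.57 and 14.49, array medians between 5.08 and 5.13 and correlations between arrays from 0.983 to 0.994. The vascular genes had values between 4.05 and 10.1, and every group mean lay above 3.67, the highest value among 9 probe sets of Y-linked genes in these females. The labels name no array batch.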

How the data were processed

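Striatal RNA of 8 mice was measured on biotin-labelled Affymetrix arrays, 1 per mouse. The deposited log2 values per probe set were made by the authors by RMA in affy, per the submitters' processing notes, with versions not given in the sources used here; RMA compresses differences of dim probe sets. Groups came from the sample titles.

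Of 45101 probe sets, 64 controls were left out, 34945 had 1 symbol in the platform annotation, 932 had several and 9160 had no entry; 34741 matched RefSeq by Entrez ID. The single-gene probe set with the highest mean over 8 arrays stood for each of 18193 genes. Differences, R6/2 minus wild-type, came from limma 3.58.1 in R 4.3.3 (lmFit and eBayes with a constant prior), with Benjamini-Hochberg adjustment over all genes, or over 45037 probe sets where probe sets are compared. A fold is 2 to the power of the size of the log2 difference. The test was tried on simulated data.

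The vascular genes and all lists were chosen with earlier results of these data known. All 36 vascular genes were described. Of each other vascular list, up to 3 called genes with the smallest adjusted p were named, as were Vegfa, Vegfb, Angpt1, Angpt2, Pdgfb, Notch3, Calcrl, Fzd4 and Adgra2 whatever their values. Pgf and Sema3a were named in addition, as the genes of the ligand list that were called higher. Alternatives were quantile normalization, centring on array medians, no dimmest 40%, the mean of all probe sets, no _s_at or _x_at probe sets, an intensity trend with robust moderation, no moderation, array weights, each mouse left out, and 2 covariates added later. Figures used matplotlib 3.10.9 in Python 3.11.15. No p was computed for a list.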

Additional observations from a re-analysis of the deposited data

Results flagged for a closer look

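Each vascular gene was screened in both groups for a mouse far from the other 3 of its group, with Dixon's criterion at the 95% level, and 8 mouse values stood out. Chance alone marks about 1 in 20 groups, and 76 groups were screened, 6 of them the levels of the gene parts. In R6/2 mice, Mfsd2a was low in mouse 65 at 6.70, against 7.0 to 7.05 in the others. Slc38a5 was low in R6/2 mouse 78 at 4.42, against 4.71 to 4.73. Ocln was low in R6/2 mouse 64 at 4.82, against 4.88 in the other 3, a small step. In wild-type mice, Kdr was high in mouse 42 at 7.23, against 6.72 to 6.79. Esam was high in wild-type mouse 54 at 7.05, against 6.82 to 6.86, and so was Emcn at 5.43, against 4.85 to 4.95. Wild-type mouse 63 was low for Tek at 5.47, against 5.82 to 5.85, and for Abcc9 at 5.60, against 6.25 to 6.37.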

How the results depend on the processing

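Cldn5, Abcb1a, Flt1 and Kdr kept their calls without each mouse. Leaving out 1 mouse at a time gave 4 to 6 vascular genes lower and 0 to 1 higher, 1679 to 2545 genes called in all, 921 to 1579 of them higher and 755 to 1122 lower, against 2781, 1654 and 1127 with all mice. The medians then ran from -0.18 to -0.066 for barrier, -0.23 to -0.11 for endothelial and -0.094 to -0.012 for mural genes. Without moderation 1399 genes were called, 819 higher and 580 lower, with 2 vascular genes lower (Cldn5 and Abcb1a) and 0 higher. With the cortical covariate 1330 were called, 816 higher and 514 lower, with 3 vascular genes lower. With the choroid plexus covariate 2419 were called, with 5 vascular genes lower. Both covariate fits leave fewer residual degrees of freedom than the main fit, and equally many. Why fewer genes were called with the cortical covariate was not tested. The other settings gave 5 to 8 vascular genes lower and 1 higher.

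These differences, none of them called, changed sign. With the mean of all probe sets Ocln was -0.099, Rgs5 0.15, Vtn 0.023 and Angpt1 -0.011. Without _s_at and _x_at probe sets Acta2 was 0.066 and Abcc9 -0.13. Without R6/2 mouse 64 Pecam1 was 0.0034 and Vtn 0.024; without R6/2 mouse 78 Anpep was -0.033; without wild-type mouse 42 Sox17 was 0.018; and without wild-type mouse 54 Ocln was -0.020. Over all mice left out in turn, Pecam1 ran from -0.10 to 0.0034, Vtn from -0.085 to 0.024, Anpep from -0.033 to 0.087, Sox17 from -0.21 to 0.018 and Ocln from -0.020 to 0.039. Fzd4 ran from -0.049 to 0.22, and was -0.11 and -0.13 with the cortical and choroid plexus covariates. The cortical covariate also gave Cdh5 0.011, Vwf 0.061 and Erg 0.0008, and the choroid plexus covariate Ocln -0.019. No paired analysis was possible because the groups share no mouse numbers. With 4 mice per group, and a median standard error of 0.093 over all genes, small differences of dim probe sets are beyond reach.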
